A study of Canis lupus familiaris with 29 samples.

Results

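The genes described here are the 100 whose expression varied least across 29 canine lymphomas among genes that were abundant and were not set apart by tumour class. They were taken from a table of 16382 Ensembl gene IDs in 3 steps. A gene had to have a mean of at least 50 FPKM (a fragment count divided by transcript length and by library total) over the 29 libraries, which 1762 IDs had. Its mean of log2(FPKM + 1) had to differ by less than 1 between the 9 T-cell and the 20 B-cell tumours, which left out 220 IDs, and the 2 classes had to overlap, which left out a further 6. Of the 1536 genes that met these conditions, the 100 with the smallest standard deviation (SD) of log2(FPKM + 1) over all libraries are the members.

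All 29 libraries came from lymphomas of golden retrievers, a breed in which both B-cell and T-cell lymphoma occur. Among the dogs with B-cell tumours 9 were female and 11 male, and 17 were neutered and 3 intact. Among those with T-cell tumours 6 were female and 3 male, and 6 were neutered and 3 intact, and age at diagnosis spanned 2.0 to 14.0 years over both classes. The labels name no treatment and do not say by which assay the class was assigned. They also do not state that each library is from a separate dog, so p-values here cover only the spread among libraries. No sequencing batch is named.

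Some genes are used by nearly every cell, among them genes for making, folding and removing proteins, for processing RNA and for the cytoskeleton. They are often called housekeeping genes, and genes with a steady level are used as internal references when transcripts are measured by quantitative PCR. The mean level of a gene in a tumour biopsy also reflects the mixture of cells in it, and in bulk RNA fewer cells of a type and less RNA per cell cannot be told apart. The table names genes by Ensembl ID only, and 0 of the IDs could be paired with a symbol here. Which members belong to these known families, whether the usual reference genes are among them, and whether lymphocyte markers bear out the class labels were therefore not analysed here, and members are described by their values, with 4 IDs given individually.

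The libraries differed in ways that bear on the members. The summed FPKM was lowest in T-cell library 5, at 319067, and highest in B-cell library 5, at 677096. Sequencing depth relative to B-cell library 1, read from the steps between low FPKM values, was lowest in T-cell library 5, at 0.522, and highest in B-cell library 8, at 2.21. Fragment totals are unknown and no counting error can be given. Genes with a mean of at least 50 FPKM were shifted as a body in 2 libraries, with a median distance from their own means of -0.61 log2 units in T-cell library 5 and 0.37 in B-cell library 5, against -0.12 to 0.12 in the other 27. The median over all genes that reached 1 FPKM in 5 or more libraries had the opposite sign there. It was 0.08 in T-cell library 5 and -0.18 in B-cell library 5. In T-cell library 6 the genes with a mean of at least 50 FPKM were not shifted as a body. Its members had the widest interquartile range of distances from their own means, at 0.496 log2 units, ahead of B-cell library 5 at 0.462. Values without these 3 libraries are given beside several of the results. Among the results read with all 29 libraries only are the spread and level of members beside the other genes and the size of their class differences. So are the choice of genes on 1 class alone, the share of class in the sum of squares and the member pairs under other scalings. The choice of genes without a library left out 1 library at a time.

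The rule chose the members by their small SD, so the size of that SD describes the choice. Members had a median SD of 0.224 log2 units, from 0.119 to 0.245, against a median of 0.475 for the 1436 other genes that met the conditions. The coefficient of variation of FPKM was 15.7% at the median member and 33.1% at the median of the others. From the lowest to the highest of the 29 libraries a member changed by a median of 1.94-fold, with a range over members from 1.39-fold to 2.82-fold. In 62 of the 100 members the highest library was under 2-fold above the lowest, which held for 22 of the 1436 others. Each member was at 25 FPKM or more in every library, as were 1096 of the others. No gap marked the edge of the group: the last 5 members had SDs from 0.243 to 0.245, and the next 5 genes in order had SDs from 0.245 to 0.246.

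**Figure D1:**
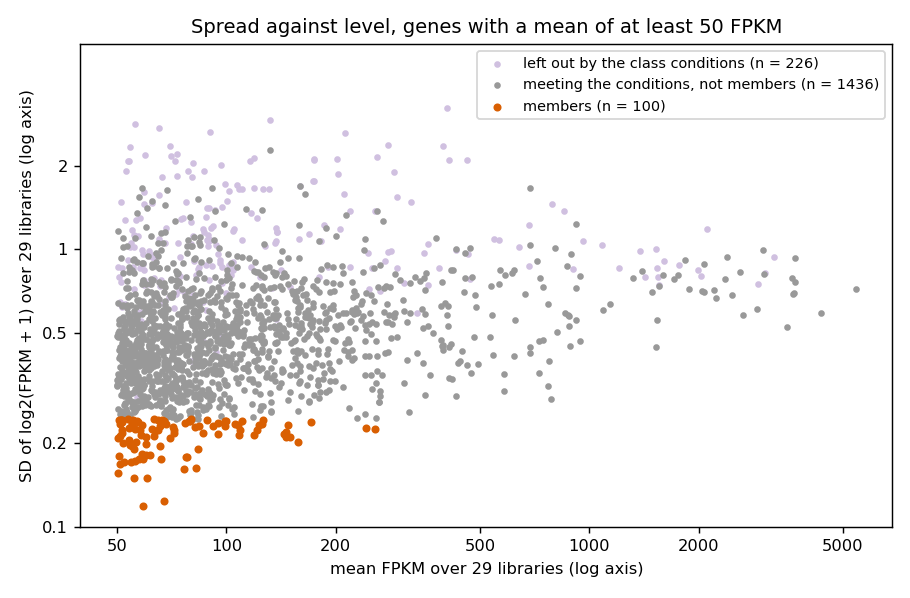
Each point is 1 gene with a mean of at least 50 FPKM, placed by its mean FPKM and by the SD of log2(FPKM + 1) over 29 libraries, both on log axes. The 100 members lie along the lower edge, most of them under 100 FPKM, and no gap separates them from the 1436 other genes that met the conditions.

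The steadiest genes were not the most abundant ones. Members had a median mean level of 65.8 FPKM, from 50.2 to 257, against 84.2 FPKM for the others, and the most abundant member ranked 213th among all IDs. Of the 945 genes meeting the conditions between 50 and 100 FPKM, 81 were members (8.57%). Between 100 and 200 FPKM 17 of 363 were members (4.68%), and from 200 FPKM upwards 2 of 228 (0.877%). The median SD of the genes in these bands was 0.415, 0.498 and 0.586, so it was higher in the bands of higher level. The bands were read as deposited and with all 29 libraries only, including the 2 in which abundant genes were shifted as a body. The part of these libraries and of the scaling in the order of the bands was not tested. With a floor of 20 FPKM, which lets 3966 genes meet the conditions, 30 of the members were among the 100 steadiest.

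The gene with the smallest SD, ENSCAFG00000008903, ran from 50.7 to 67.0 FPKM over the T-cell libraries with a median of 57.2, and from 50.01 to 69.7 FPKM over the B-cell libraries with a median of 58.8. The T-cell libraries lay inside the range of the B-cell libraries and nearly filled it. Its mean was 58.8 ± 6.17 FPKM (SD, n = 9) in T-cell and 58.96 ± 4.48 FPKM (SD, n = 20) in B-cell tumours, with an SD of 0.119 log2 units over all 29. In the 3 libraries that stood apart it was at 67.0 FPKM in T-cell library 5, 54.4 FPKM in B-cell library 5 and 50.7 FPKM in T-cell library 6.

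The next gene in order, ENSCAFG00000013067, ran from 62.0 to 75.5 FPKM with a median of 70.3 over T-cell libraries, and from 56.002 to 78.8 FPKM with a median of 65.8 over B-cell libraries. All T-cell libraries lay inside the range of the B-cell libraries. Its SD within the T-cell tumours was 0.0948 log2 units, smaller than the 0.132 within the B-cell tumours, whereas for ENSCAFG00000008903 the order was the reverse, at 0.148 and 0.108.

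The 2 members with the highest mean were ENSCAFG00000015835 and ENSCAFG00000017503. ENSCAFG00000015835 ran from 197.8 to 288.9 FPKM with a median of 232.4 over T-cell libraries, and from 181.8 to 342.4 FPKM with a median of 267.8 over B-cell libraries. ENSCAFG00000017503 ran from 192.3 to 282.8 FPKM with a median of 237.9 over T-cell libraries, and from 175.7 to 375.0 FPKM with a median of 247.6 over B-cell libraries. For both genes the T-cell libraries lay inside the B-cell range. The high end of ENSCAFG00000017503 was 1 library, B-cell library 5 at 375.0 FPKM, and the next highest was B-cell library 9 at 307.1 FPKM. Without B-cell library 5 and T-cell libraries 5 and 6 its SD was 0.186 in place of 0.227 log2 units.

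**Figure D2:**
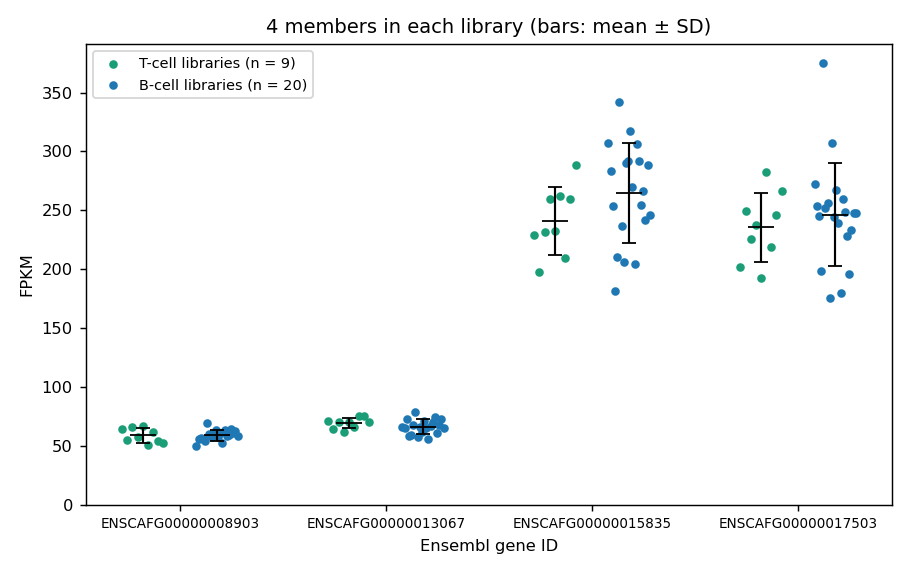
FPKM of 4 members in each library, with T-cell libraries (n = 9) and B-cell libraries (n = 20) side by side and bars for the mean ± SD. The 2 steadiest genes stay between 50.01 and 78.8 FPKM, the 2 most abundant members between 175.7 and 375.0 FPKM, and the classes overlap for each gene.

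As a body the members varied little between tumours, which their choice requires. The median FPKM over the 100 members ran from 63.9 to 71.1 with a median of 66.3 over T-cell libraries and from 60.4 to 75.5 with a median of 65.7 over B-cell libraries. It was lowest in B-cell library 8 and highest in B-cell library 5. The median distance of the members from their own means ran from -0.15 log2 units, in B-cell library 8, up to 0.09, in B-cell library 6, which is a range of 0.239. The members took 1.81% ± 0.300 (SD, n = 9) of the summed FPKM of T-cell libraries and 1.65% ± 0.179 (SD, n = 20) of that of B-cell libraries. Without the 3 libraries that stood apart it was 1.75% ± 0.213 (SD, n = 7) and 1.67% ± 0.161 (SD, n = 19). This share was highest, at 2.44%, in T-cell library 5 and lowest, at 1.28%, in B-cell library 5, the libraries with the lowest and the highest summed FPKM. The summed FPKM of the members alone was 7786 in T-cell library 5 and 8687 in B-cell library 5.

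Values far from the mean of their gene were gathered unevenly over the libraries. Of the 2900 member values, 75 lay more than 0.5 log2 units from the mean of their gene. B-cell library 5 held 19 of these, T-cell library 5 held 12, and T-cell libraries 6 and 8 held 9 each, while 14 of the 29 libraries held none. The 26 libraries other than B-cell library 5 and T-cell libraries 5 and 6 held 35. B-cell library 5, T-cell library 5 and T-cell library 6 together were the highest library for 40 members and the lowest for 33. T-cell library 6 was set apart by the spread of its members, so its part in these counts is partly fixed by that choice. In T-cell library 5 the members strayed to both sides, with 6 members over 0.5 log2 units below and 6 above their means. The other genes that met the conditions strayed mostly downwards there, with 57.0% below and 10.7% above by that much.

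**Figure D3:**
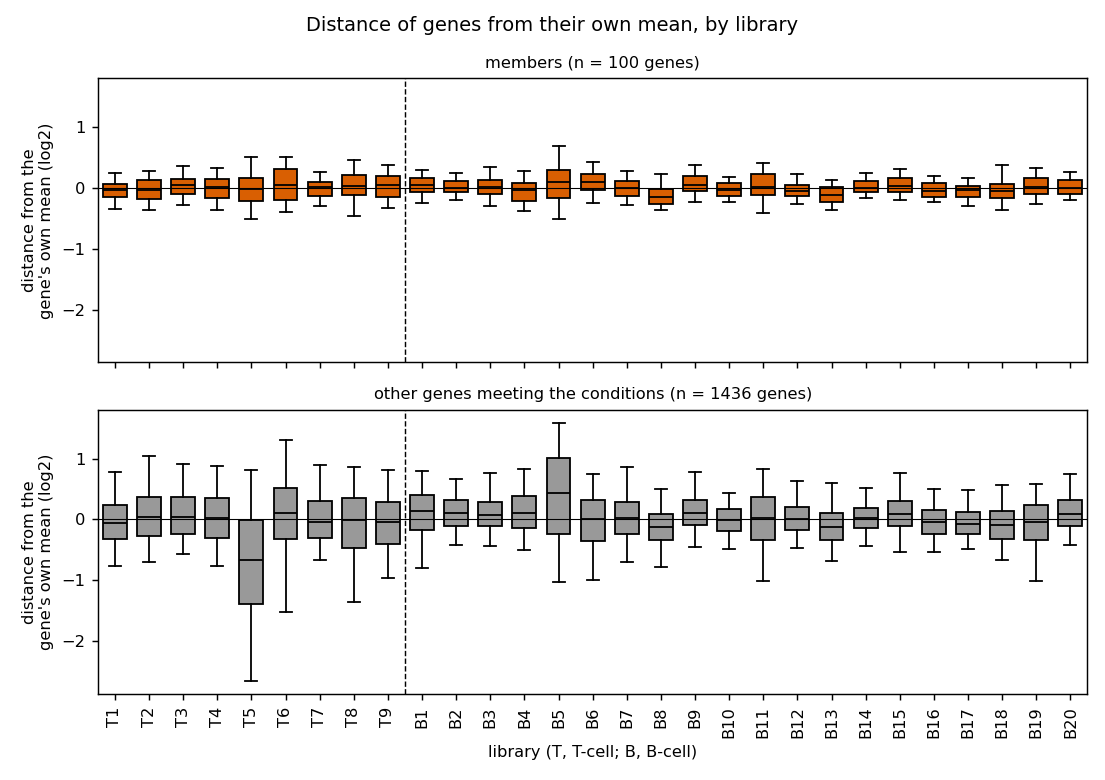
Distance of each gene from its own mean over 29 libraries, in log2 units of FPKM + 1, by library, for the 100 members (top) and the 1436 other genes that met the conditions (bottom). Boxes show the quartiles and median and whiskers the 5th to 95th percentiles. The members' medians stay between -0.15 and 0.09, with the box of B-cell library 8 wholly below 0, while the others are shifted down in T-cell library 5 and up in B-cell library 5.

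Because the members were chosen with every library in view, their closeness to their own means in a given library was partly fixed by the choice. The genes were therefore chosen anew 29 times on 28 libraries and read in the library left out. In all 29 libraries the 100 genes chosen without it lay nearer to their mean in the others than the remaining genes did. Their median absolute distance was 0.151 log2 units at the median library, against 0.274 for the remaining genes, and the ratio of the 2 distances ran from 1.17 in B-cell library 8 to 2.52 in T-cell library 5.

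The number of chosen genes that lay far from their mean in the library left out differed widely between libraries. In B-cell library 5, 46 of the 100 genes chosen without it lay over 0.5 log2 units from their mean in the other 28, and in T-cell library 5 it was 35. Among the remaining genes 64.1% and 68.8% did so in these libraries, so the count was high for both sets there. T-cell library 6 followed with 22 and T-cell library 8 with 18, and the remaining 25 libraries had between 0 and 8. Among the members, chosen with these libraries included, the counts in the same 4 libraries were 19, 12, 9 and 9. The median of the genes chosen without a library moved less than that of the remaining genes in both shifted libraries: the median distance was -0.13 in T-cell library 5 and 0.12 in B-cell library 5, against -0.71 and 0.41 for the remaining genes.

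**Figure D4:**
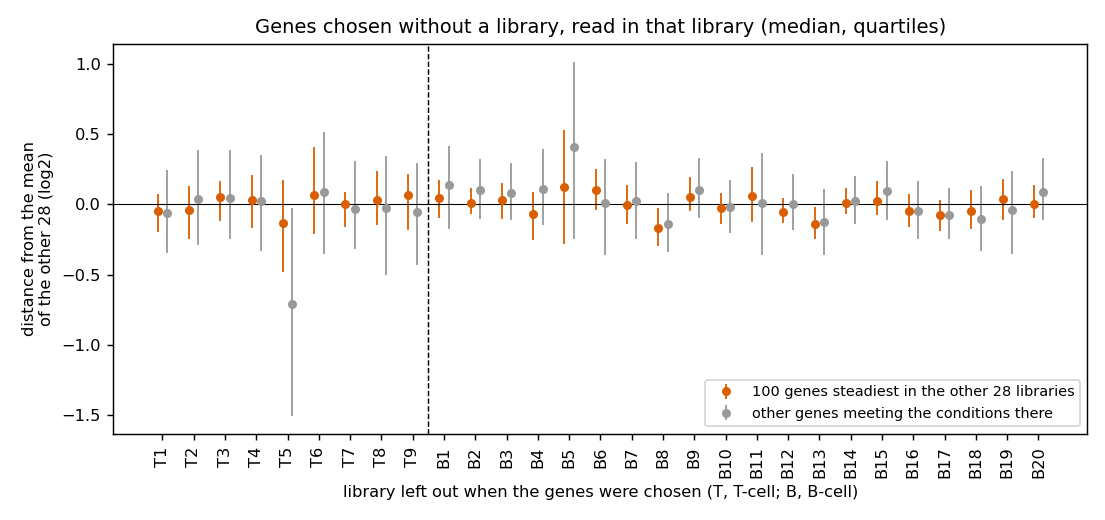
For each library, the 100 genes with the smallest SD in the other 28 libraries (orange) and the remaining genes that met the conditions there (grey) were read in the library left out. Points are the median distance from the mean of the other 28, in log2 units, and bars the quartiles. The orange medians stay between -0.17 and 0.12, and the grey ones reach -0.71 in T-cell library 5 and 0.41 in B-cell library 5.

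Steadiness was shared in part between the 2 tumour classes. The 100 genes with the smallest SD were chosen on 1 class alone, among the 1720 IDs with a mean of at least 50 FPKM in B-cell tumours or the 1804 in T-cell tumours, with no condition on the other class. The 100 chosen on the B-cell tumours had a median SD of 0.270 log2 units in the T-cell tumours, against 0.529 for the other genes abundant in B-cell tumours, and 95 of the 100 lay below that value. The 100 chosen on the T-cell tumours had a median SD of 0.241 in the B-cell tumours, against 0.395, and 97 lay below it. The class difference of these genes was also small although it took no part in the choice. Its median size was 0.152 log2 units for those chosen on B-cell tumours, with 0 of 100 at 1 or more, against 0.390 and 12.2% for the others. For those chosen on T-cell tumours it was 0.227, with 1 of 100 at 1 or more, against 0.413 and 15.6%. The classes did not overlap for 1 of the 100 genes chosen on B-cell tumours and for 3 of the 100 chosen on T-cell tumours. Such genes were not counted among the others.

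The lists themselves overlapped only in part. When the conditions were kept and the SD was taken over the B-cell libraries only, 57 of the 100 members were found again, and with the T-cell libraries only 47 were. Of these, 25 were in both lists. With 9 libraries the SD of a gene is less precisely known than with 20.

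Within the classes, members had a median SD of 0.219 log2 units over the T-cell and 0.194 over the B-cell tumours. The SD was larger in T-cell tumours for 62 of 100 members, and for 78.7% of the others, whose median SDs were 0.507 and 0.372. Both are descriptions, since the rule used the SD over all libraries. Without T-cell libraries 5 and 6, 41 of 100 members had the larger SD in T-cell tumours, and without B-cell library 5 as well, 46 did. These libraries were left out because they stood apart, which tends to lower the SD of their own class. The lower counts therefore do not show where the excess came from. With all libraries kept, the count was 53 with median-of-ratios scaling and 71 with quantile normalization.

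The rule limited the difference between the classes to under 1 log2 unit. The SD over all libraries, at most 0.245 for a member, also limits that difference, because a class difference adds to it. Without the class conditions the same 100 members were chosen. The small class differences of the members are therefore partly fixed by the choice. Their T-cell minus B-cell difference in mean log2(FPKM + 1) ran from -0.36 to 0.34, with a median size of 0.109 against 0.345 for the other genes that met the conditions. A higher mean in T-cell tumours was found in 48 members and a lower one in 52. In the fit of all genes, 19 members differed between the classes (limma, Benjamini-Hochberg adjusted p under 0.05), 10 of them higher and 9 lower in T-cell tumours. Of the 11552 genes tested 40.4% differed, 23.6% higher and 16.8% lower in T-cell tumours. Nothing is read from that count, because the rule used this contrast. Its split depended on the scaling between libraries: median-of-ratios scaling gave 2 higher and 15 lower in T-cell tumours, and quantile normalization gave 5 and 10. The median difference of all genes tested was 0.09 as deposited, 0.01 with median-of-ratios scaling and -0.03 with quantile normalization, and that of the members was 0.00, -0.10 and -0.04.

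Library by library, 142 of the 900 values of members in T-cell tumours lay outside the range of the 20 B-cell tumours. For 31 members no T-cell library lay outside that range, for 31 members 1 did, and for 38 members 2 or more did, with at most 7 of the 9. T-cell library 6 was outside for 29 members and T-cell library 5 for 24, against 7 each for T-cell libraries 1 and 7. Without B-cell library 5 and T-cell libraries 5 and 6, 114 of 700 values lay outside the range of the 19 B-cell tumours, and for 46 members no T-cell library did. The rule required the classes to overlap. The same counts were not made for the other genes, so whether these are few or many cannot be said.

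Pairs of members varied together only weakly as deposited. Over the 29 libraries the 4950 pairs of members had a median Pearson correlation of 0.05 in log2(FPKM + 1), with quartiles of -0.15 and 0.24. For the pairs of other genes that met the conditions the median was 0.10, with quartiles of -0.18 and 0.38. A correlation above 0.7 was seen in 27 pairs of members (0.545%), and in 4.50% of the other pairs. These pairs share the libraries and any scaling between them, and the values are descriptions. The 27 pairs joined 31 members into 8 groups, of which the largest held 11. A small SD as deposited leaves little room for a movement shared by all members on that scale, so the low correlation is partly fixed by the choice. With other scalings the median correlation of members was higher, at 0.21 with median-of-ratios scaling and 0.13 with quantile normalization, where that of the other genes was 0.15 and 0.03. The order of the medians as deposited, members below the others, was thus the reverse under both scalings. It was also the reverse without B-cell library 5 and T-cell libraries 5 and 6, at 0.06 for members and 0.03 for the others, where 45 pairs of members (0.909%) and 2.38% of the other pairs were above 0.7.

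The first 3 principal components took 16.8%, 14.7% and 13.1% of the members' variance, 44.6% in all, against 59.7% for the other genes. In the first of them 8 of 9 T-cell libraries lay on one side of 0 and 15 of 20 B-cell libraries on the other. T-cell library 5 lay on the B-cell side. Such sides were counted for the members only, so whether the other genes split the classes likewise cannot be said. Without B-cell library 5 and T-cell libraries 5 and 6 the first component took 21.4%, with 5 of 7 T-cell libraries on one side and 15 of 19 B-cell libraries on the other, and the first 3 took 46.8% against 54.3% for the other genes. Class alone accounted for 11.7% of the members' sum of squares and for 28.2% of that of the other genes with a mean of at least 50 FPKM. Unlike the other genes above, this last set includes those that the class conditions left out, which raises its share. The rule used the class difference, so the smaller share is a description.

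The sex, neuter status and age of the dogs took no part in the rule, although a small SD limits the size of any difference. In a model with tumour class and neuter status, 0 of the 100 members differed between females and males (limma, adjusted p under 0.05), where 0.00866% of all genes tested did. At an unadjusted p under 0.05 there were 8 members, 2 higher and 6 lower in females, where 5.81% of all genes tested were higher and 5.12% lower. Without B-cell library 5 and T-cell libraries 5 and 6 there were 9 members, 1 higher and 8 lower, where 1328 of the 11552 genes tested were under that p. In the full fit the female minus male difference of the members ran from -0.24 to 0.22 log2 units, and the lowest adjusted p among them was 0.400. The 95% interval of a member, with no adjustment over genes, extended by a median of 0.18 log2 units on each side, and for each of the 100 members both ends lay within 0.5. This held for 5780 of the 11552 genes tested. The width of an interval follows the spread of the gene, which the rule kept small, so this contrast was largely fixed by the choice.

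The steadiest gene, ENSCAFG00000008903, had a female minus male difference of -0.04 ± 0.06 log2 units (SE; limma adjusted p = 0.800). The largest such difference among the 4 genes given individually was that of ENSCAFG00000015835, at -0.19 ± 0.09 (SE; limma adjusted p = 0.460). Neither passed the threshold.

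Between neutered and intact dogs, with class and sex in the model, 0 members differed, and 0% of all genes tested did (limma, adjusted p under 0.05). At an unadjusted p under 0.05 there were 5 members, 0 higher and 5 lower in neutered dogs, where 6.30% of all genes tested were higher and 4.74% lower. In the fit without B-cell library 5 and T-cell libraries 5 and 6 there were 8, of which 3 were higher and 5 lower, and 52 in place of 44 members had a positive difference. Of the 11552 genes tested 612 were under that p there, against 1276 in the full fit. The neutered minus intact difference of the members ran from -0.34 to 0.18 log2 units, with a lowest adjusted p of 0.378. With 6 intact dogs the intervals were wider, with a median reach of 0.22 log2 units. Both ends lay within 0.5 for 97 members and for 3850 of the 11552 genes tested, a contrast again largely fixed by the choice. ENSCAFG00000017503 had a neutered minus intact difference of -0.21 ± 0.12 log2 units (SE; limma adjusted p = 0.505), which did not pass.

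For age, with class, sex and neuter status in the model, 0 members and 0% of all genes tested passed (limma, adjusted p under 0.05). At an unadjusted p under 0.05 there were 3 members, all with a positive slope as deposited, where 2.67% of all genes tested had a positive and 2.35% a negative slope at that level. With B-cell library 5 and T-cell libraries 5 and 6 left out there was 1 member, with a negative slope, and 50 in place of 65 members had a positive one. Of the 11552 genes tested 347 were under that p there, against 580 in the full fit. The change per year ran from -0.02 to 0.04 log2 units over the members, and its interval extended by a median of 0.03 on each side. The lowest adjusted p among members was 0.899. The balance of directions with neuter status and age turned with quantile normalization, where 80 in place of 44 members were higher in neutered dogs and 21 in place of 65 had a positive slope with age. Median-of-ratios scaling did not turn it, with 28 higher in neutered dogs and 67 with a positive slope. The members higher in females numbered 47 as deposited, 44 with median-of-ratios scaling, 21 with quantile normalization and 36 without B-cell library 5 and T-cell libraries 5 and 6. As deposited, 56.0% of the genes tested and 68.0% of those with a mean of at least 50 FPKM were higher in females. In neutered dogs 55.1% and 33.8% were higher, and with age 52.6% and 71.6% had a positive slope. Such shares were not counted for the other settings, so nothing is read from the members' directions.

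Which genes count as steady depended on how the libraries were scaled against each other. Median-of-ratios scaling kept 75 of the 100 members among its 100 steadiest genes, and quantile normalization kept 66, with 54 kept by both. With median-of-ratios scaling 99 of the 100 members were among the 200 steadiest genes and the last stood at rank 228. With quantile normalization 87 were, and the last stood at rank 476. The members were chosen for a small SD as deposited, which also limits their shared movement on that scale, so a larger movement on another scale is partly fixed by the choice. Their median distance from their own means spanned 0.479 log2 units over the libraries with median-of-ratios scaling and 0.495 with quantile normalization, against 0.239 as deposited. B-cell library 5 went to opposite sides, at 0.29 with median-of-ratios scaling and -0.26 with quantile normalization. So did T-cell library 5, at -0.15 and 0.24.

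**Figure D5:**
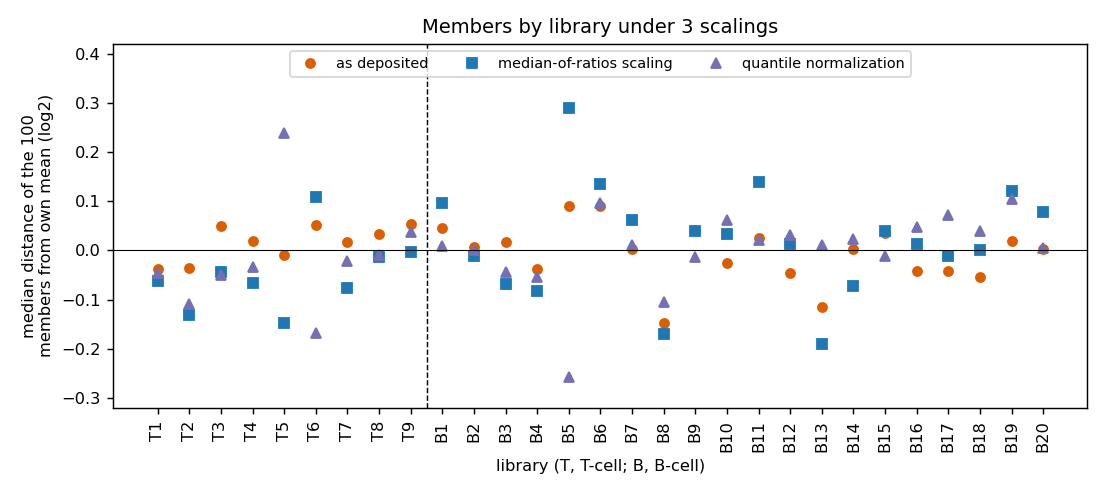
Median distance of the 100 members from their own means, in log2 units of FPKM + 1, by library, for the values as deposited and with 2 other scalings between libraries. The deposited values stay between -0.15 and 0.09, while B-cell library 5 and T-cell library 5 move to opposite sides of 0 under the other 2 scalings.

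The SDs of the genes given individually also changed with the scaling. ENSCAFG00000008903 had an SD of 0.137 log2 units with median-of-ratios scaling and 0.181 with quantile normalization, against 0.119 as deposited. For ENSCAFG00000013067 the SDs were 0.144 and 0.164, against 0.124. Quantile normalization moved ENSCAFG00000015835 furthest, from 0.226 to 0.358, and lowered ENSCAFG00000017503 from 0.227 to 0.196.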

How the data were processed

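Total RNA of 29 lymphomas was sequenced from Illumina TruSeq libraries after RNeasy extraction, per the labels' protocols. The submitters' processing notes list FastQC 0.11.2, TopHat 1.4.1, Cuffdiff and the build CanFam3.1, without options, annotation or a scaling between libraries. The authors deposited FPKM per Ensembl gene ID. By its definition FPKM divides by the library total, so that the level of a gene also depends on that of the others. Whether these values also hold another scaling between libraries is not known. Of 78 columns, the 29 named by sample titles were used and 49 were not used. Libraries were numbered within a class in accession order, which pairs none.

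The members and lists were chosen with earlier results of these data known. The 15 gene lists could not be read for lack of symbols. The rule for named genes then gave the 2 IDs with the smallest SD, the 2 with the highest mean and any called for sex, neuter status or age, of which there were none.

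Values were analysed as log2(FPKM + 1), with a pseudocount of 1. R 4.3.3 with limma 3.58.1 (trended variance, robust moderation) was fitted to the 11552 genes that reached 1 FPKM in 5 or more libraries, in both directions, with Benjamini-Hochberg adjustment over all of them. All 100 members passed this filter. Choosing genes without a library or a class was added after the data were examined. Median-of-ratios factors came from 11092 genes above 0 in each library. Relative depth was the most frequent ratio of FPKM below 0.2 between libraries, within 0.05 log2 units of the fitted ratio in 100% of 812 ordered pairs. Alternatives covered scaling, pseudocount, filters, libraries and weights. The rule and the fits were tested on simulated data. Python 3.11.15, numpy 2.4.6, pandas 2.3.3 and matplotlib 3.10.9 were used.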

Additional observations from a re-analysis of the deposited data

Results flagged for a closer look

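In T-cell library 5 the genes with a mean of at least 50 FPKM lay a median of -0.61 log2 units from their own means, far from the next lowest T-cell library at -0.05. The gap between them made up 0.830 of the range of the 9 T-cell libraries, above Dixon's 95% critical value for 9 samples. This was 1 of 11 measures examined, and chance singles out about 1 in 20. The members in the same library lay at a median of -0.01, and the 100 genes chosen without that library at -0.13. The median distance over all genes tested was 0.08 in that library. As deposited, the downward shift was thus seen in the abundant genes and not in that median. The shift of the abundant genes was not read under another scaling. The members' median in that library was -0.15 with median-of-ratios scaling and 0.24 with quantile normalization. T-cell library 5 also had the lowest relative depth, 0.522, and the lowest summed FPKM, 319067, of the 29 libraries. The summed FPKM contains the abundant genes, so it is not a measure separate from their shift. The part of depth and of the summed FPKM in the shift of the abundant genes was not tested.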

How the results depend on the processing

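Of the 100 members, 66 were found again with quantile normalization, 30 with a floor of 20 FPKM, 19 with a floor of 100 FPKM (which 81 members miss), 57 and 47 with the SD over B-cell or T-cell libraries only, and 60 without B-cell library 5 and T-cell libraries 5 and 6. Median-of-ratios scaling kept 75, the coefficient of variation 86, a pseudocount of 0.1 98, and no condition on class 100. Leaving out each library in turn kept 74 to 99, with 74 without B-cell library 5 and 78 without T-cell library 5, and 61 members were kept whichever library was left out. The count of members with the larger SD in T-cell tumours, 62, was 41 without T-cell libraries 5 and 6 and 46 to 71 in the 4 other alternatives. The range of the members' median distance over libraries, 0.239, was 0.479 with median-of-ratios scaling and 0.495 with quantile normalization. Members called for sex, neuter status or age numbered 0 in the 9 alternatives run for each; the lowest adjusted p was 0.292 to 0.571 for sex, 0.0955 to 0.964 for neuter status (0.0955 in B-cell libraries only) and 0.425 to 0.999 for age. Members called between the classes numbered 15 to 18 in 3 alternatives. The setting without 3 libraries, the libraries whose class label is written with a space in place of a hyphen, both scalings of the class count and of the members' median distance, the scalings of member pairs, and each alternative for the SDs of the 4 genes given individually were chosen after the data were examined. Where no cause is stated, the cause was not tested. No paired analysis was possible because the labels carry no replicate numbers. Unknown fragment counts keep counting error from being separated from variation between tumours.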
